A study of Mus musculus with 6 samples.

Results

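Small leucine-rich proteoglycans (SLRPs) are secreted matrix proteins built around a curved stretch of leucine-rich repeats, most of which carry chondroitin, dermatan or keratan sulfate chains. The 7 genes described here are Dcn, Lum, Bgn, Fmod, Ogn, Prelp and Aspn. They were chosen by gene symbol, as 7 of the 31017 symbols of the count matrices, and all 7 were found. Their UMIs (unique molecular identifiers, 1 per captured transcript) were counted in droplet barcodes with at least 500 genes and at most 10% mitochondrial UMIs.

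The 6 single-cell libraries come from collecting lymphatic vessels of the skin, the muscular vessels that pump lymph, which join the inguinal to the axillary lymph node, of C57BL/6 mice. The groups are young (6 weeks), middle-aged (12 months) and aged (18 months), with 1 library labelled male and 1 labelled female at each age and no genetic or drug treatment. All vessels were made visible with Evans Blue and digested with collagenase, elastase and dispase. The aged mice came from the National Institute on Aging, so supplier and age cannot be told apart. The sources used here do not give the number of mice behind each library, so p-values measure only the spread between these 6 libraries, which may be technical.

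Libraries held 9616652 to 28921825 UMIs, and 998 to 7939 cells per library were kept, with median depths of 2507 to 7484 UMIs. Pairs of libraries shared 0 to 12 cell barcodes. The middle-aged pair went against its sex labels: Xist, made from the inactive X chromosome, stood at 1402 CPM under the male label and 3.54 CPM under the female label, and the Y-linked Ddx3y at 0.215 and 175 CPM. Both are therefore named by their labels throughout. CPM are the UMIs of a gene scaled to a common total of UMIs. Of 23898 cells, 11769 were fibroblasts, and all 12 fibroblast markers were detected in the fibroblasts of every library. Smooth muscle and lymphatic endothelium were rare, with 23 to 85 and 21 to 96 cells in the 5 libraries that reached the minimum of 20, and the aged female library gave 3 and 4 cells.

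SLRPs bind to collagen fibrils at set sites and steer how thick and how evenly spaced the fibrils become. Decorin (Dcn) and biglycan (Bgn) carry chondroitin or dermatan sulfate chains, also bind growth factors of the TGF-beta family, and belong with asporin (Aspn) to one class of the family. Lumican (Lum), fibromodulin (Fmod) and PRELP (Prelp) form another class, whose members include keratan sulfate proteoglycans, and osteoglycin (Ogn) belongs to a further one. Soluble biglycan is also known as a ligand of Toll-like receptors. In skin and vessel walls fibroblasts are the best known source of these proteins.

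The genes lie in small groups in the mouse genome (GENCODE M21, build GRCm38). Aspn (ENSMUSG00000021388, chromosome 13, 49544443 to 49567565) and Ogn (ENSMUSG00000021390, chromosome 13, 49608046 to 49624501) share a stretch of chromosome 13 with the SLRP relatives Ecm2 and Omd, at gaps of 11.7, 14.9 and 15.2 kb in the order Ecm2, Aspn, Omd, Ogn. Dcn (ENSMUSG00000019929, chromosome 10, 97479609 to 97518143) and Lum (ENSMUSG00000036446, chromosome 10, 97565128 to 97572703) are 47.0 kb apart and next to Kera and Epyc. Prelp (ENSMUSG00000041577, chromosome 1, 133910304 to 133921414) lies 116 kb from Fmod (ENSMUSG00000041559, chromosome 1, 134037254 to 134048277). Bgn (ENSMUSG00000031375, chromosome X, 73483602 to 73495933) stands alone.

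The RefSeq promoter table (GRCm38.p6) holds 300 bases, 250 before and 50 after the start, for 5 of the 7 genes. Shown are the promoters of Aspn and Ogn, from that stretch of chromosome 13 and with their highest means in different cell classes, and of Bgn, whose level set the fibroblast subtypes apart. They are Aspn at chr13:49544193-49544492, Ogn at chr13:49607765-49608064 and Bgn at chrX:73483351-73483650, all on the plus strand and written 5′ to 3′. Capitals mark each match to 4 motifs searched on both strands: the TATA box core TATAAA, the AP-1 motif TGANTCA, the GC box core GGGCGG and the CArG box.
Aspn: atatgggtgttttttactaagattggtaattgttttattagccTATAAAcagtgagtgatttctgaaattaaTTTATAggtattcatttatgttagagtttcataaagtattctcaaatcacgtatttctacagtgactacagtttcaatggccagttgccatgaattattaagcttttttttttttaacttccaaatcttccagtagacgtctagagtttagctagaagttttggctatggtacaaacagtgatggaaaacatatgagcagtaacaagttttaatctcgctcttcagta
Ogn: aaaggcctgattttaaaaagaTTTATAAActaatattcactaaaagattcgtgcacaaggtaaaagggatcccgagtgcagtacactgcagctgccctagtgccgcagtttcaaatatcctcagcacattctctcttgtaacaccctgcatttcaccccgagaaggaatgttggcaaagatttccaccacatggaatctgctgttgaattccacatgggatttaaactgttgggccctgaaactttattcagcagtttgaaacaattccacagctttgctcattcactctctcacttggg
Bgn: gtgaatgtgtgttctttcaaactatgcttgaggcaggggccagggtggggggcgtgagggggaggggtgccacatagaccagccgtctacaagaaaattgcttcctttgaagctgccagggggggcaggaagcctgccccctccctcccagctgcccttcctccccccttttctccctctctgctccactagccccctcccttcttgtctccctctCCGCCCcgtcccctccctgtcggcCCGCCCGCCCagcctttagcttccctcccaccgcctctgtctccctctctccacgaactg
TATAAA was found in Aspn and Ogn and is present in 13.6% of the 32851 promoters of this length. All of its matches in both genes lie closer to the upstream end of the window, 250 bases before the start, than to the start. Whether any of them acts as a TATA box was not tested. In Ogn the match on one strand overlaps a match on the other. GGGCGG was found 3 times in Bgn, with overlap between the last 2 matches, and is present in 35.7% of promoters. TGANTCA, present in 7.81% of promoters, and the CArG box, present in 1.63%, had no match in any of the 5 windows. Bgn's window has 63.7% G and C, against 31% in Aspn, 42.3% in Ogn and a median of 52.7% over all promoters.

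Decorin, osteoglycin and lumican had their highest means in fibroblasts in these vessels, while biglycan, asporin, PRELP and fibromodulin had means in other cell classes that matched or exceeded those in fibroblasts. The values are levels in CPM of 3′ counts, which are not divided by gene length, averaged over the libraries with at least 20 cells of a class. They are given as a description with no test, because the classes are clusters of the same cells; the SLRP genes were left out of the clustering and of the marker lists. In sums over a class, fewer cells with a transcript and less transcript per cell cannot be told apart. Shares of fibroblasts with a Dcn or Bgn UMI are given below.

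Dcn averaged 9690 ± 1546 CPM in fibroblasts (SD, n = 6), and its 6 libraries spanned 6854 to 11007 CPM. The class next in order with at least 3 libraries, neutrophils, averaged 694 ± 732 CPM (SD, n = 3) and did not overlap with fibroblasts. In fibroblasts Dcn made up 78.0 ± 5.36% of the summed CPM of the 7 genes (SD, n = 6), Ogn 10.4 ± 2.44% and Lum 6.33 ± 4.35%. Ogn averaged 1269 ± 201 CPM in fibroblasts (SD, n = 6) and 212 ± 110 CPM in smooth muscle (SD, n = 5), the next class, with no overlap. Lum averaged 793 ± 618 CPM in fibroblasts (SD, n = 6), where it ran from 244 to 1926 CPM, and its range overlapped with that of neutrophils, the next class, at 112 ± 163 CPM (SD, n = 3). These 3 genes had the highest CPM of the 7 in fibroblasts. The single Schwann cell sum, of 96 young male cells, had 3759 CPM of Dcn and 756 CPM of Ogn.

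Asporin was highest in the smooth muscle cluster, named for the contractile cells of the vessel wall. This cluster also held pericyte transcripts: 139 of its 224 cells had a UMI of the pericyte genes Kcnj8, Abcc9, Higd1b or Cspg4. The 7 pericyte markers summed to 1882 to 3884 CPM per library there, against 691 to 1749 CPM in blood endothelium. Levels named smooth muscle are those of the whole cluster. Aspn had 590 and 683 CPM in the young male and female libraries, 633 and 571 CPM in the pair labelled middle-aged male and female, while aged male smooth muscle had 591 CPM. The mean of 614 ± 44.8 CPM (SD, n = 5) stood above fibroblasts at 247 ± 122 CPM (SD, n = 6) in 5 of 5 shared libraries, without overlap. Blood endothelium followed at 108 ± 32.5 CPM (SD, n = 6). Basal epithelium, at 1.40 ± 2.42 CPM (SD, n = 3), and lymphatic endothelium, at 5.26 ± 7.19 CPM (SD, n = 5), had little Aspn.

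Biglycan was spread over several cell classes, within and outside the vessel wall. Bgn averaged 403 ± 115 CPM in smooth muscle (SD, n = 5), 339 ± 30.9 CPM in basal epithelium (SD, n = 3), 319 ± 97.5 CPM in lymphatic endothelium (SD, n = 5), 246 ± 128 CPM in fibroblasts (SD, n = 6) and 136 ± 77.3 CPM in blood endothelium (SD, n = 6). Each neighbouring pair in this order overlapped between libraries. The single skeletal muscle sum, of 108 young male cells, had Bgn at 135% of the CPM in young male fibroblasts. Prelp, whose protein binds heparan sulfate and collagen, averaged 308 ± 171 CPM in basal epithelium (SD, n = 3), 160 ± 59.2 CPM in fibroblasts (SD, n = 6), 147 ± 77.2 CPM in lymphatic endothelium (SD, n = 5) and 112 ± 21.3 CPM in smooth muscle (SD, n = 5). Each neighbouring pair of those 4 classes overlapped, but basal epithelium, at 188 to 505 CPM, lay above smooth muscle, at 89.9 to 135 CPM. Basal and luminal epithelium came only from the libraries with Xist: young female, labelled middle-aged male and aged female. Only 2 libraries had sums of both basal epithelium and smooth muscle. Smooth muscle in turn lay above blood endothelium, at 34.3 ± 11.4 CPM (SD, n = 6), in all 5 shared libraries.

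Fibromodulin, abundant in tendon, was nearly missing from fibroblasts. Fmod had 78 and 2 UMIs in young male and female, 0 and 11 in the pair labelled middle-aged male and female, and 1 and 1 in aged male and female fibroblasts, out of 2408991 to 14857598 UMIs. It averaged 53.1 ± 16.2 CPM in basal epithelium (SD, n = 3) and 28.6 ± 25.9 CPM in smooth muscle (SD, n = 5), where aged male had 0 UMIs. The Schwann cell sum had 12 UMIs of Fmod, or 58.5 CPM.

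**Figure D1:**
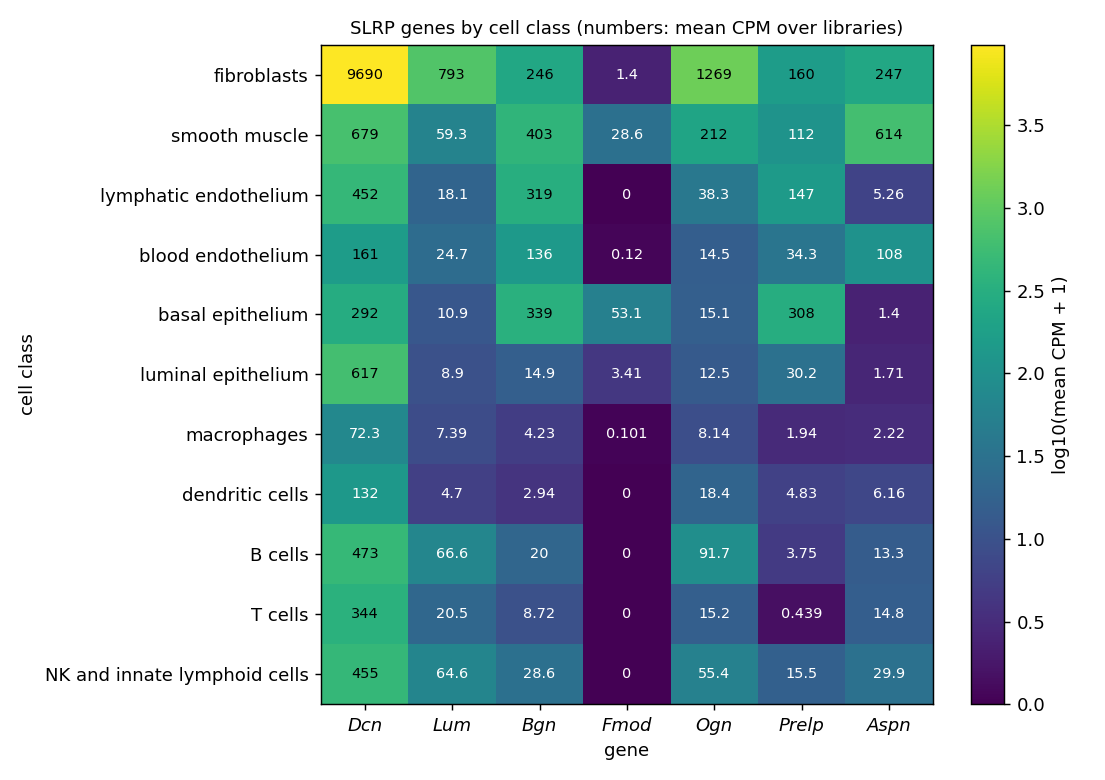
Mean CPM of the 7 SLRP genes (columns) in 11 cell classes (rows) over the libraries with at least 20 cells of the class; colour is log10 of the mean CPM plus 1. Among the classes drawn, Dcn, Lum and Ogn are highest in fibroblasts, Aspn and Bgn in smooth muscle, and Prelp and Fmod in basal epithelium.

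Free RNA can put transcripts of abundant fibroblast genes into other droplets, so each level was set beside the 12 fibroblast markers in the same library, both as a percentage of the fibroblast CPM. In macrophages Dcn stood at 0.738% of the fibroblast level on average over 6 libraries, and the median marker at 0.793%. In smooth muscle Dcn averaged 6.71% and the median marker 9.48%, and in lymphatic endothelium 4.58% and 4.08%. Dcn, Lum and Ogn exceeded the highest marker in no library of smooth muscle, lymphatic endothelium, blood endothelium or macrophages. Elsewhere some libraries went the other way. Dcn stood at 24.98% of the fibroblast level in luminal epithelium under the middle-aged male label (3356 UMIs), above the highest marker at 5.47%, and at 12.8% in young male T cells (42 UMIs), above 9.63%. Lum stood at 123% in neutrophils under the middle-aged female label (89 UMIs), above 25.1%, and also passed every marker in 1 library of T cells and 1 of NK and innate lymphoid cells. Ogn did so in 1 library of dendritic cells and, with 1 UMI, in 1 of NK and innate lymphoid cells. Ogn in smooth muscle, at 17.6%, lay above the median marker and below the highest one.

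Bgn did exceed every fibroblast marker in 5 of 5 smooth muscle, 5 of 5 lymphatic endothelium, 6 of 6 blood endothelium and 3 of 3 basal epithelium libraries. Aspn did so in 5 of 5 smooth muscle and 6 of 6 blood endothelium libraries and in none of lymphatic endothelium. Prelp did so in 5 of 5 lymphatic endothelium, 3 of 3 basal epithelium, 4 of 5 smooth muscle and 3 of 6 blood endothelium libraries. In macrophages, Bgn did so in 2 of 6 libraries and Prelp in 1 of 6, at averages of 1.69% and 1.28% of the fibroblast level. Relative to fibroblasts of the same library, Aspn in smooth muscle averaged 279%, Bgn in smooth muscle 177% and Bgn in lymphatic endothelium 149%.

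**Figure D2:**
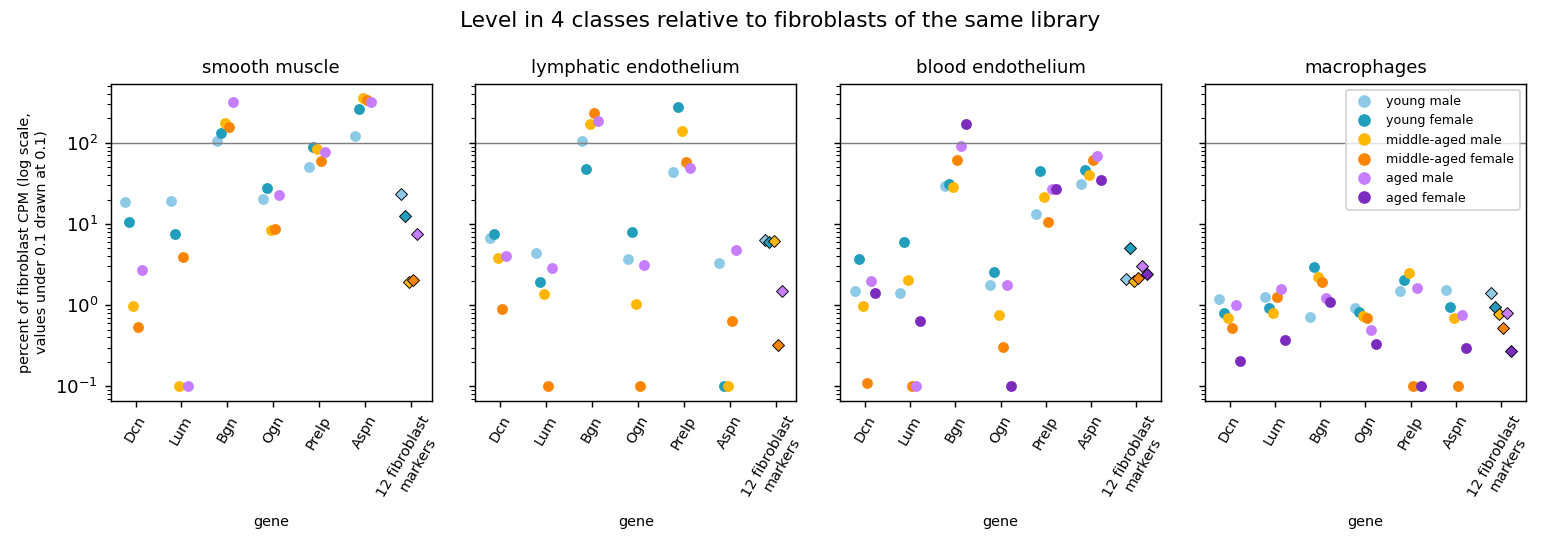
Level of 6 SLRP genes (Fmod left out) in 4 classes as a percentage of the CPM in fibroblasts of the same library, on a log axis; circles are libraries, diamonds the median of the 12 fibroblast markers, and the grey line marks 100%. Bgn and Aspn in smooth muscle and Bgn in lymphatic endothelium lie far above the markers, and all 6 genes in macrophages lie near them.

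The blood endothelium cluster also held pericyte transcripts, and asporin went with them there. Of its 1361 cells, 408 had a UMI of the pericyte genes Kcnj8, Abcc9, Higd1b or Cspg4. These 408 cells together had 275 CPM of Aspn and 183 CPM of Bgn, and the other 953 had 23.8 CPM of Aspn and 81.9 CPM of Bgn. The young male and female libraries, which alone had at least 20 cells of both kinds, gave 294 and 202 CPM of Aspn in cells with such a UMI, against 23.4 and 29.5 CPM in cells without. The endothelial junction gene Cdh5 stood at 784 CPM in the 408 cells and 1057 CPM in the 953. In smooth muscle Aspn did not go with them: it was at 580 CPM in 54 cells with such a UMI and 607 CPM in 31 without in young male, and at 506 CPM in 20 with and 717 CPM in 28 without under the middle-aged male label.

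Per cell, decorin marked nearly every fibroblast. With each cell thinned to 1000 UMIs, 99.2% to 100% of fibroblasts per library had a Dcn UMI, against 1.06% to 6.49% of macrophages. Unthinned, these ranges were 99.8% to 100% and 7.61% to 26.6%, at median depths of 3181 to 10320 UMIs in fibroblasts and 1829 to 6966 in macrophages. Thinning left out 1 to 71 fibroblasts and 0 to 163 macrophages per library as too shallow. Bgn was seen in 10.0% to 27.7% of thinned fibroblasts and 0.175% to 1.42% of thinned macrophages, and in 19.9% to 50.9% and 0.516% to 2.63% unthinned. By library, the thinned Bgn share was 24.0% and 27.7% in young male and female fibroblasts. It was 14.5% and 13.6% in the pair labelled middle-aged male and female, and 11.1% and 10.0% in aged male and female. Mean Bgn UMIs per thinned fibroblast were 0.438 and 0.412, 0.205 and 0.235, and 0.187 and 0.1585 in the same order. These differences by age were not tested. At least 4 of the 7 genes were seen together in 26.2% and 25.1% of young male and female fibroblasts, 14.3% and 9.05% in the pair labelled middle-aged male and female, and 10.3% and 12.9% of aged male and female fibroblasts, thinned.

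Fibroblasts were divided into 6 subtypes, called by 2 or 3 genes from their leading genes or marker lists, beside 99 fibroblasts with macrophage genes and 11 with hemoglobin genes. Subtypes with high Pi16 and Dpp4 are known as adventitial fibroblasts, and Col15a1 marks parenchymal ones. Pi16 and Col15a1 in these names come from the marker lists and were not among the 10 leading genes of their clusters. The mean log2 fold of the list headed by Pi16 and Dpp4, over the other clusters, was 0.67 in Pi16 Dpp4 Smpd3 and higher, at 1.26, in Dmkn Krtdap fibroblasts. That of the list headed by Col15a1 and Agt was 1.14 in Col15a1 Agt and 1.06 in Fgf10 Scg3 fibroblasts. These 2 subtypes thus share much of that list. The subtype names came after the clusters' leading genes were seen, and 1 of them, Ccl2 Ptx3, is led by chemokine and stress genes. Levels between subtypes are again a description.

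Biglycan separated the subtypes into high and low groups. Bgn averaged 901 ± 235 CPM in Col15a1 Agt (SD, n = 6), 833 ± 393 CPM in Cilp Hmcn2 (SD, n = 4) and 611 ± 153 CPM in Fgf10 Scg3 fibroblasts (SD, n = 6). It averaged 68.1 ± 63.8 CPM in Pi16 Dpp4 Smpd3, 55.1 ± 53.0 CPM in Ccl2 Ptx3 and 15.1 ± 17.5 CPM in Dmkn Krtdap fibroblasts (SD, n = 6 each). With the SLRP genes kept in the clustering, other cells took the name Cilp Hmcn2. A cluster of 592 cells had Hmcn2 and Cilp among its leading genes. Another, of 1901 cells, was led by Myoc and Wisp2, and its best marker list was that of Pi16 Dpp4. Together they averaged 351 ± 324 CPM (SD, n = 6), from 86.7 to 889 CPM. The level under this name thus depends on which cells take it, and Bgn was not counted in each cluster apart. With the SLRP genes left out of the clustering, the lowest library of the 3 high subtypes, at 406 CPM, stood above the highest of the 3 low ones, at 187 CPM. The 86.7 CPM found under the name Cilp Hmcn2 in the other clustering lies below that 187 CPM. The 3 high subtypes held 77.6% to 94.0% of the fibroblast Bgn UMIs per library.

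Lumican also had its 3 highest means in those subtypes, with more spread. Lum averaged 1626 ± 721 CPM in Fgf10 Scg3 (SD, n = 6), 1107 ± 405 CPM in Cilp Hmcn2 (SD, n = 4) and 1063 ± 439 CPM in Col15a1 Agt fibroblasts (SD, n = 6), and 483 to 601 CPM in the other 3 subtypes, and neighbours in this order overlapped. Of the 78 Fmod UMIs in young male fibroblasts, 64 were in Col15a1 Agt and 11 in Cilp Hmcn2 cells, and all 11 in the library labelled middle-aged female were in Col15a1 Agt cells.

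Asporin and osteoglycin had another order. Aspn averaged 538 ± 190 CPM in Cilp Hmcn2 (SD, n = 4) and 68.9 ± 65.7 CPM in Col15a1 Agt fibroblasts (SD, n = 6), the lowest of the 6 subtypes, with 208 to 265 CPM in the other 4. Ogn averaged 1863 ± 445 CPM in Cilp Hmcn2 (SD, n = 4) and 1540 ± 280 CPM in Pi16 Dpp4 Smpd3 (SD, n = 6), against 889 ± 231 CPM in Fgf10 Scg3 fibroblasts (SD, n = 6), the lowest. Cilp Hmcn2 was the higher of the top pair in 4 of 4 shared libraries for both genes, and the ranges over all libraries overlapped. Means of Dcn ran from 7953 CPM in Ccl2 Ptx3 to 13443 CPM in Col15a1 Agt fibroblasts, and means of Prelp from 147 CPM in Ccl2 Ptx3 to 250 CPM in Cilp Hmcn2 fibroblasts, with overlap between neighbours.

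**Figure D3:**
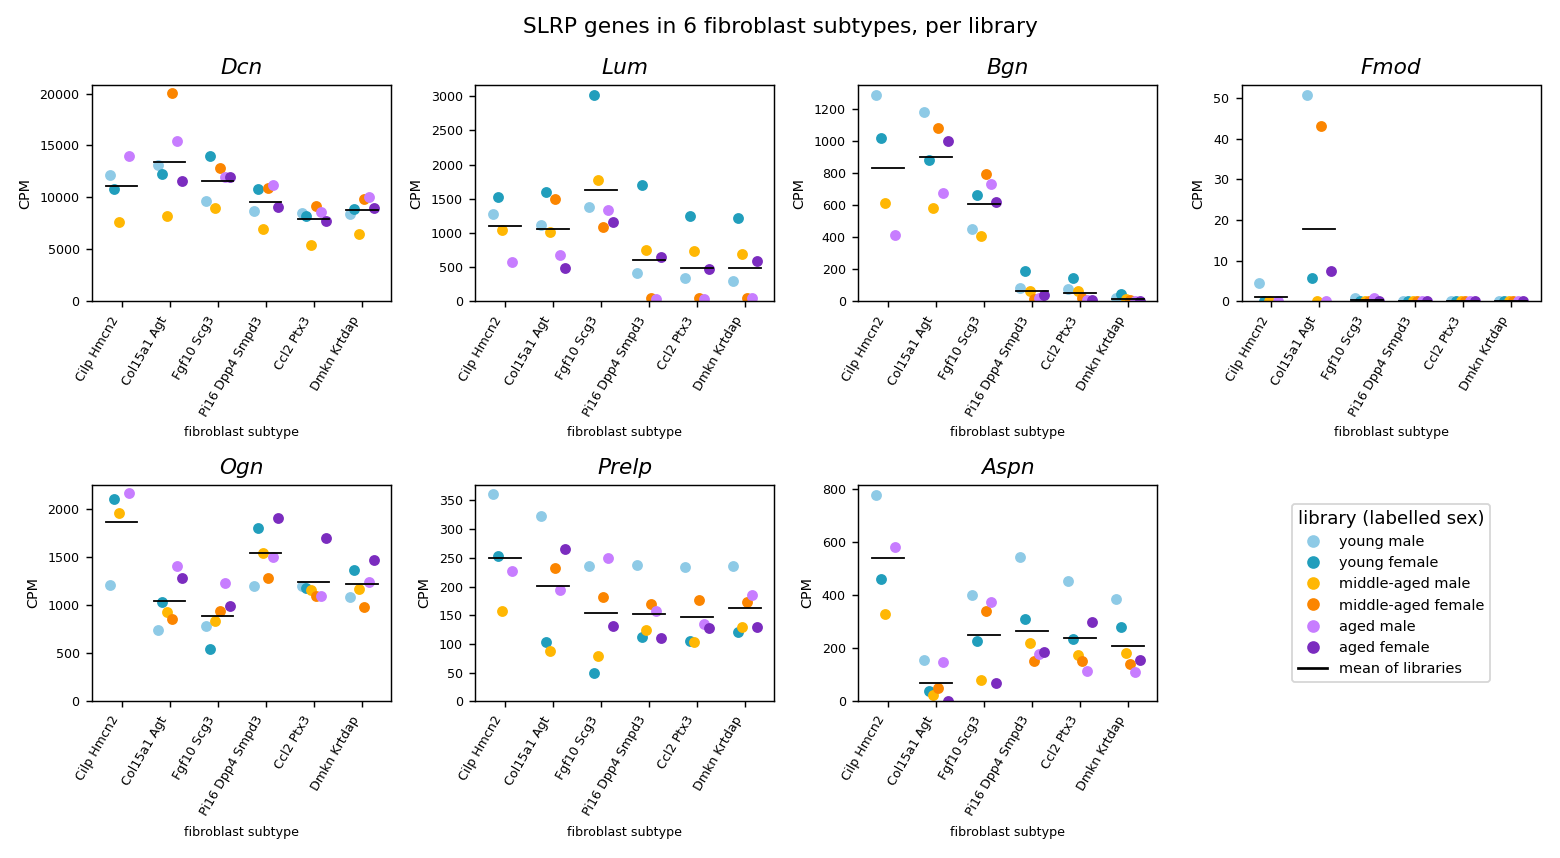
CPM of each SLRP gene (panels, each with its own linear axis from 0) in 6 fibroblast subtypes; points are libraries with at least 20 cells and bars their mean. Subtypes are those of the clustering without the SLRP genes. There Bgn is at 406 CPM or more in every library of Cilp Hmcn2, Col15a1 Agt and Fgf10 Scg3. It is at 187 CPM or less in every library of the other 3.

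The comparison by age asks which of these genes differ in fibroblasts between aged, middle-aged and young vessels. UMIs were summed per library and compared with edgeR's quasi-likelihood test with Benjamini-Hochberg adjustment over 11920 genes, and a gene is called at an adjusted p under 0.05. All 7 members passed the filter on low counts. No member was called in any of the 3 comparisons, and neither was any other gene: 0 of 11920 in each, or 0.0%. At an unadjusted p under 0.05 there were 660 genes for aged against young, 1049 for middle-aged against young and 442 for aged against middle-aged. DESeq2, run on the same sums, called 61, 71 and 11 genes in the same order.

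Biglycan was lower in both later ages than in either young library. In normalised CPM, which apply edgeR's TMM scaling, Bgn had 456 and 362 in young male and female, 189 and 179 in the pair labelled middle-aged male and female, and 149 and 146 in aged male and female fibroblasts. The young libraries did not overlap with the other 4. Its log2 change for aged against young was -1.47 ± 0.25 (SE), with an unadjusted p of 5.6e-04 and an edgeR adjusted p of 0.498. For middle-aged against young it was -1.15 ± 0.25 (SE, edgeR adjusted p = 0.539), and for aged against middle-aged -0.32 ± 0.25 (SE, edgeR adjusted p = 0.937). DESeq2 called Bgn lower in aged than young (adjusted p = 2.3e-05) and in middle-aged than young (adjusted p = 0.00475), among 0.361% and 0.31% of genes called lower.

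Asporin and lumican had lower means in aged than in young fibroblasts, each with 1 young library that stood apart. Normalised CPM of Aspn were 523 and 238 in young male and female, 183 and 194 in the pair labelled middle-aged male and female, and 183 and 179 in aged male and female fibroblasts. It had a log2 change for aged against young of -1.07 ± 0.38 (SE, edgeR adjusted p = 0.845). Without young male it was -0.40. Normalised CPM of Lum were 796 and 1768 in young male and female, 967 and 276 in the pair labelled middle-aged male and female, and 262 and 569 in aged male and female fibroblasts. It had a log2 change for aged against young of -1.63 ± 0.69 (SE, edgeR adjusted p = 0.880). Without young female it was -0.96. The aged libraries lay below the young ones for both genes, while the middle-aged Lum values spanned the young male one.

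Osteoglycin, decorin and PRELP had estimates closer to 0. Normalised CPM of Ogn were 1162 and 1122 in young male and female, 1301 and 1240 in the pair labelled middle-aged male and female, and 1303 and 1450 in aged male and female fibroblasts, a log2 change of 0.27 ± 0.25 for aged against young (SE, edgeR adjusted p = 0.926). Dcn spanned 7055 to 12146 normalised CPM over all libraries, with a log2 change of -0.13 ± 0.35 for aged against young (SE, edgeR adjusted p = 0.963). Prelp spanned 92.6 to 283 normalised CPM, with a log2 change of -0.37 ± 0.53 (SE, edgeR adjusted p = 0.942). Leaving out aged female turned the sign for Dcn, to 0.03, and leaving out young male turned it for Prelp, to 0.66. For Fmod, at 1 UMI in each aged library, no fold is given.

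Between aged and young libraries, 3 of 7 members (Bgn, Lum and Aspn) were lower without overlap, against 18.6% of all genes tested. Another, Ogn, was higher without overlap, against 16.2% of all genes. With both later ages set against young, Bgn and Aspn were lower without overlap, against 10.8% of all genes, and Ogn higher, against 7.68%.

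**Figure D4:**
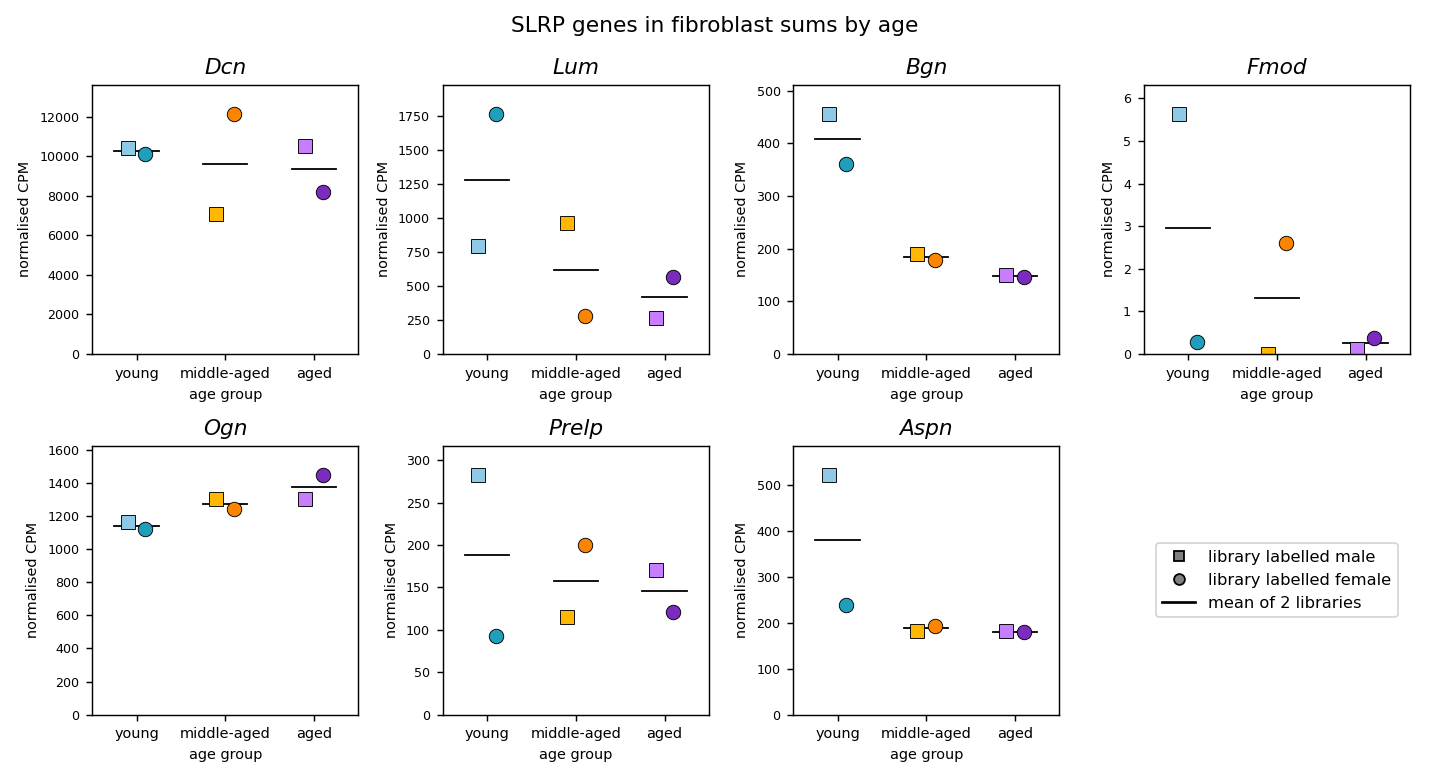
Normalised CPM of the 7 SLRP genes in fibroblast sums of 6 libraries by age group; squares are libraries labelled male, circles libraries labelled female, and bars the mean of 2 libraries. Bgn is at 362 and 456 in young libraries and between 146 and 189 in the other 4.

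The make-up of the fibroblasts moved with biglycan. The 3 subtypes with high Bgn held 40.4% and 43.3% of cells in young male and female, 34.3% and 23.0% in the pair labelled middle-aged male and female, and 24.2% and 21.6% in aged male and female fibroblasts. Summed over these 3 subtypes, Bgn had 937 and 745 CPM in the young male and female libraries, 495 and 834 CPM in the pair labelled middle-aged male and female, and 675 and 677 CPM in the aged male and female libraries. In the remaining fibroblasts it had 79.9 and 150 CPM in the young male and female libraries, 56.1 and 20.4 CPM in the middle-aged pair, and 11.4 and 18.7 CPM in the aged male and female libraries. Young libraries were highest in that remainder. The summed CPM of the 12 fibroblast markers also differed with age, at 78519 and 34720 in the young male and female libraries. It was 21637 and 19586 CPM in the middle-aged pair, and 22559 and 23175 CPM in the aged male and female fibroblast libraries. None of the 12 was called by edgeR in any comparison. Their median log2 change was -0.72 for aged against young and -0.49 for middle-aged against young. Macrophage markers in fibroblasts summed to 107 and 99.1 CPM in the young male and female libraries, and to 24.7 to 63.2 CPM in the other 4 libraries. The part of the subtype shares and of these markers in the difference of Bgn was not tested.

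Subtype by subtype, no member was called at any age, with 0.0% of genes called in aged against young in 5 of the 6 subtypes and 0.13% in Cilp Hmcn2. In those fits 6 of 7 members were tested, and all 7 in Col15a1 Agt. In Dmkn Krtdap fibroblasts Bgn had 0.7 CPM in aged male and 0 in aged female, against 23.1 CPM in young male and 46.4 in young female (unadjusted p = 5.9e-05, edgeR adjusted p = 0.246). In Ccl2 Ptx3 fibroblasts it had 8.62 CPM in aged male and 11.7 in aged female, against 74.9 and 146 CPM in the young male and female libraries (edgeR adjusted p = 0.993). Pi16 Dpp4 Smpd3 fibroblasts had 18.6 CPM in aged male and 38.2 in aged female, against 81.4 and 187 CPM in the young male and female libraries, a log2 change of -2.39 ± 0.64 (SE, edgeR adjusted p = 0.834). Other fits did make calls here. With sex as a covariate and both middle-aged labels exchanged, Bgn (log2 -2.30, edgeR adjusted p = 0.00652) and Lum (log2 -2.57, edgeR adjusted p = 0.0306) were lower in aged than young Pi16 Dpp4 Smpd3 fibroblasts, where 0.673% of genes were called, 0.235% higher and 0.439% lower. The same fit called Bgn lower in Dmkn Krtdap fibroblasts (edgeR adjusted p = 0.0106), against 0.119% of genes called. DESeq2 called Bgn lower in Ccl2 Ptx3 fibroblasts (adjusted p = 3.9e-04), against 0.0743% of genes.

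In 2 of the 3 subtypes with high Bgn the estimates lay nearer 0. Col15a1 Agt fibroblasts had 676 CPM in aged male and 1001 in aged female, against 1184 and 879 CPM in the young male and female libraries, a log2 change of -0.48 ± 0.46 (SE, edgeR adjusted p = 0.999), which ran from -0.83 without young female to -0.15 without young male. In Fgf10 Scg3 fibroblasts the log2 estimate was 0.17 ± 0.38 (SE, edgeR adjusted p = 0.9996), and -0.04 without aged male. Cilp Hmcn2 fibroblasts had 415 CPM in aged male, the only aged library with enough of them, against 1285 and 1019 CPM in the young male and female libraries (log2 -1.51 ± 0.53, SE, edgeR adjusted p = 0.335). Whether the change differs between Pi16 Dpp4 Smpd3 and Col15a1 Agt fibroblasts was tested as an interaction: for Bgn it was -1.82 ± 0.64 (SE, edgeR adjusted p = 1), and 0 of 8311 genes were called (254 at an unadjusted p under 0.05). Its size rested on single young libraries, at -2.63 without young male and -1.02 without young female. DESeq2 called no member in that interaction. Bgn passed edgeR's threshold without the filter on low counts (adjusted p = 0.00436), where 0.115% of genes were called. It also passed with sex as a covariate and the middle-aged labels exchanged (adjusted p = 0.0314), where 0.0722% were called. Leaving out either middle-aged library brought Bgn past it too, with 1 library left at that age. The estimate was then -1.80 without the male label and -1.81 without the female label.

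**Figure D5:**
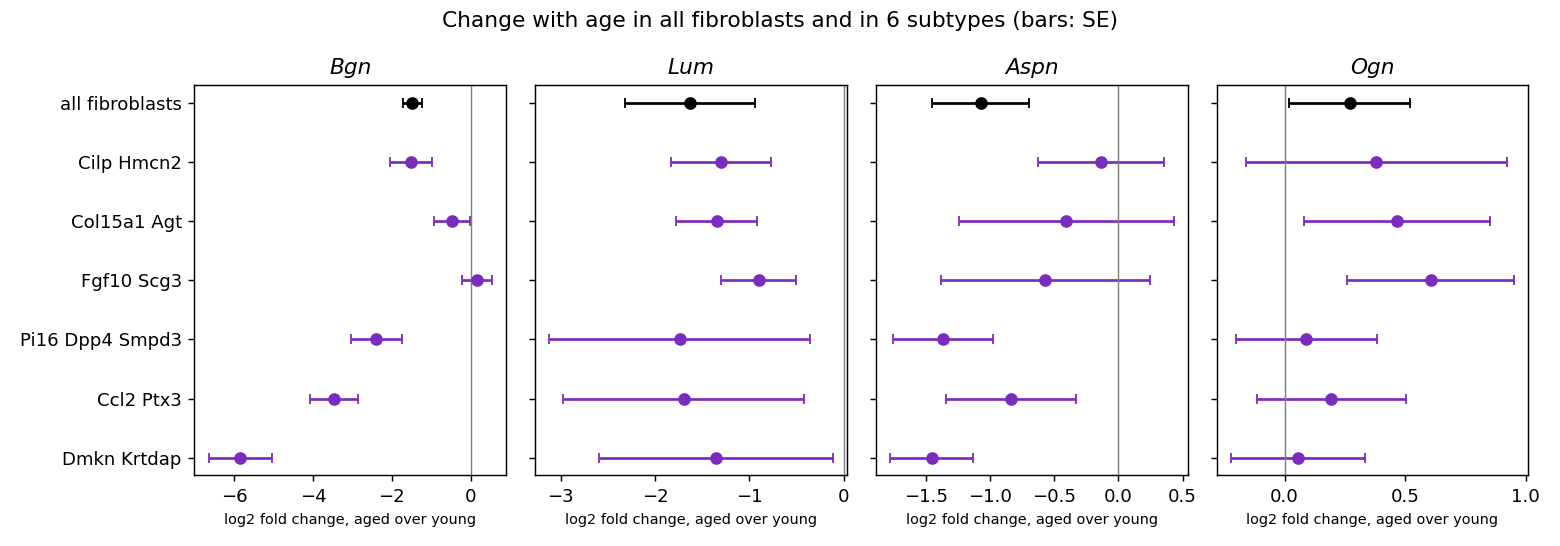
Log2 fold change of aged over young for Bgn, Lum, Aspn and Ogn in all fibroblasts (black) and in 6 subtypes (purple); bars are SE and the grey line is 0. None passed edgeR's threshold, and Bgn lies furthest from 0 in Dmkn Krtdap, Ccl2 Ptx3 and Pi16 Dpp4 Smpd3 fibroblasts, where its counts are low.

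Lumican also differed between the libraries of each age, and the higher one was in each case the library with Xist, as a description with no test. In Pi16 Dpp4 Smpd3 fibroblasts Lum had 1703 CPM in young female and 419 CPM in young male, 755 CPM under the middle-aged male label and 45.6 CPM under the middle-aged female label, and 642 CPM in aged female and 42.1 CPM in aged male. Ccl2 Ptx3 fibroblasts had the same order, with 1255 against 345 CPM, 736 against 54.1 CPM and 476 against 38.8 CPM at the 3 ages. Col15a1 Agt fibroblasts did not, with 1593 against 1112 CPM in young, 1012 against 1502 CPM in middle-aged and 485 against 673 CPM in aged libraries. Which difference between these libraries goes with Lum was not tested.

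In smooth muscle and lymphatic endothelium some members were called, in sums whose fibroblast markers were also lower at the later ages. Dcn in smooth muscle had 1814 and 1169 CPM in the young male and female libraries, 67.3 and 57.6 CPM in the pair labelled middle-aged male and female, while aged male had 286 CPM. The aged side is 1 library, assumed to vary like the others. Of 6 members tested, Dcn alone was lower in aged male than in young smooth muscle (log2 -2.52 ± 0.54, SE, edgeR adjusted p = 0.0153), against 0.456% of 2632 genes called, 0.114% higher and 0.342% lower. In middle-aged against young, Dcn (log2 -4.68 ± 0.48, SE, edgeR adjusted p = 8.7e-08) and Lum (edgeR adjusted p = 0.0105) were lower, against 2.85% of genes called, 0.722% higher and 2.13% lower. Lum had 33 and 8 UMIs in young male and female, with 0 and 2 UMIs in the middle-aged pair, so no fold is given. The call of Lum was lost without the top 5% of cells by UMIs (edgeR adjusted p = 0.0822) and without the library labelled middle-aged female (edgeR adjusted p = 0.101), and DESeq2 gave Lum no adjusted p. In aged against middle-aged no member was called, against 0.038% of genes.

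In the same smooth muscle sums the 12 fibroblast markers had 19007 and 4531 CPM together in the 2 young libraries, 1292 and 1157 CPM in the middle-aged pair and 1612 CPM in aged male, with 0 to 5 of them at 0. Of 10 markers tested, 4 were called lower in aged than young and 9 in middle-aged than young, and none higher. Their part in the lower Dcn and Lum was not tested. The aged call of Dcn was lost without young male (adjusted p = 0.781), with DESeq2 (0.115), without the filter on low counts (0.136), without the top 5% of cells by UMIs (0.0584) and with sums thinned to 1 depth (0.239). Aspn, which stood above the markers, had a log2 estimate of -0.20 ± 0.47 in aged against young smooth muscle (SE, edgeR adjusted p = 0.966), and Bgn one of -0.12 ± 0.48 (SE, edgeR adjusted p = 0.988).

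Dcn in lymphatic endothelium had 658 and 821 CPM in the young male and female libraries, 261 and 95.1 CPM in the pair labelled middle-aged male and female, while aged male had 423 CPM. Of 4 members tested there, Dcn was lower in middle-aged than young (log2 -2.33 ± 0.39, SE, edgeR adjusted p = 7.9e-04), against 1.9% of 3153 genes called, 0.983% higher and 0.92% lower. No member was called in aged against young, where 7.58% of genes were called, 4.19% higher and 3.39% lower; the aged side is again 1 library, aged male, assumed to vary like the others. The fibroblast markers summed to 4906 and 1957 CPM in the young male and female libraries, 1147 and 144 CPM in the middle-aged pair and 333 CPM in aged male, with at most 1 of them at 0, and 4 of 7 tested were called lower in middle-aged than young. The libraries ranked differently by Dcn and by these markers. Young female had the most Dcn, and young male the highest marker sum. Aged male stood above the library labelled middle-aged male in Dcn and below it in marker sum. The part of the markers was not tested. The call of Dcn was lost without young male (adjusted p = 0.113), with sums thinned to 1 depth (0.0760) and without the top 5% of cells by UMIs, where the log2 estimate was -0.17 (adjusted p = 0.9497).

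In blood endothelium none of the 4 members tested was called in any comparison, against 0.0507% of 5923 genes called in aged against young, 0.0169% higher and 0.0338% lower. Bgn had 136 and 281 CPM in the aged male and female blood endothelium libraries, against 124 and 124 CPM in the young male and female libraries (log2 0.71 ± 0.33, SE, edgeR adjusted p = 0.570). The estimate was 0.14 without aged female and 1.06 without aged male.

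The other genes of the pathway, in 7 lists, also gave no call in fibroblasts: 0 of 96 tested members passed in either direction in any of the 3 comparisons. For aged against young the collagens and their partners had a median log2 change of -0.76 over 19 tested of 20, against -0.00 over all genes. Col3a1, a fibrillar collagen, had normalised CPM of 23378 and 7914 in young male and female, 2850 and 1974 in the pair labelled middle-aged male and female, and 2632 and 2486 in aged male and female fibroblasts, a log2 change of -2.61 ± 0.53 (SE, edgeR adjusted p = 0.627). Col1a1, a chain of type I collagen, had a log2 estimate of -2.56 ± 0.64 (SE, edgeR adjusted p = 0.668), with young male at 14355 normalised CPM, young female at 3261 and the other 4 libraries at 1326 to 1656. The young libraries lay above the other 4 for both collagens.

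The enzymes that build chondroitin and dermatan sulfate chains had a median of -0.29 over 19 tested of 22, led by Csgalnact1, which starts the chain, at -1.54 ± 0.35 (SE, edgeR adjusted p = 0.641). Dse, the epimerase that makes dermatan sulfate, had 58.2 and 58.9 normalised CPM in the aged male and female fibroblast libraries, against 86.4 and 83.9 in young male and female. Keratan sulfate enzymes had a median of -0.06 over 8 tested of 10, with the sulfotransferase Chst1 at 1.49 ± 0.54 (SE, edgeR adjusted p = 0.863). Other proteoglycans had a median of -0.40 over 16 tested of 17, and the matrix proteases also -0.40 over 11 tested of 13. Receptors and ligands reported to bind SLRPs had a median of -0.06 over 18 tested of 21, with Bmp2 at 101 and 94.3 normalised CPM in the aged male and female libraries, against 47.3 and 55.0 in young male and female fibroblasts. Among other SLRP relatives, 5 tested of 11 had a median of -0.67.

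Profiles over classes were compared as a description. Pearson correlations of log2(CPM + 1) over 65 sums of a class in a library, which share libraries and depth, were 0.849 for Dcn with Ogn, 0.829 for Dcn with Lum, 0.892 for Bgn with Prelp and 0.163 for Dcn with Fmod. Aspn and Ogn, with Omd between them on chromosome 13, reached 0.743, and Fmod and Prelp 0.518. The genes with the most similar profile were Serpinf1 for Dcn (0.885), Pcolce2 for Ogn (0.912), Efemp1 for Lum (0.856), Cald1 for Bgn (0.896), Arhgap42 for Prelp (0.949), Pcdh19 for Aspn (0.929) and Fgf1 for Fmod (0.820). Over 34 sums of a fibroblast subtype in a library, Bgn was most like Col15a1 (0.940), Lum most like Ggt5 (0.904), Aspn most like Col6a6 (0.902) and Dcn most like Slit3 (0.865), and Dcn and Ogn stood at -0.216.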

How the data were processed

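The authors deposited raw UMI counts per gene and droplet barcode for 6 libraries, made with Cell Ranger 3.0.2 on mm10 per the file headers and the submitters' processing notes. All 6794880 barcodes of the list were given per library, with no cell calling. From them, 24488 barcodes passed a minimum of 500 genes and a limit of 10% mitochondrial UMIs, and 590 doublets (2.41%) marked by Scrublet in scanpy 1.11.5 at an expected rate of 6% were removed. Cells were clustered on 2000 variable genes, 30 principal components and 15 neighbours at resolution 1, without 18 SLRP genes, into 29 clusters; 784 cells stayed unnamed. Fibroblasts were divided again with 20 components at resolution 0.6 on values scaled within each library, since unscaled clusters split by library.

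UMIs were summed per library and class (at least 20 cells) and tested with edgeR 4.0.16 (TMM, filterByExpr, age only, quasi-likelihood F test, Benjamini-Hochberg adjustment over all genes, threshold 0.05) in R 4.3.3. DESeq2 1.42.0 was an alternative, beside relative log expression factors, no filter, sex as a covariate, stricter cell filters, thinning, free RNA subtraction, other fibroblast definitions and leaving out each library. On counts simulated for fibroblasts, aged against young, over 11682 genes, 13% of 4-fold and 0% of 2-fold changes were recovered, with 5 false calls.

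The 7 genes, the lists and the markers were chosen with earlier results of these data known. The class-naming rule, the scaling within libraries, the subtype names, the fibroblast marker percentage, the pericyte division, the motifs and 2 alternatives (fibroblasts without the macrophage and hemoglobin clusters, and without Ccl2 Ptx3) were settled after seeing the data. Named genes are the members, the most similar genes by correlation and up to 4 genes of smallest p per pathway list. Values after ± are the SD over libraries or the SE of a fit over library sums. UMIs of 71 gene IDs that share a symbol were summed by symbol.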

Additional observations from a re-analysis of the deposited data

Results flagged for a closer look

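The age difference of Bgn had opposite signs in 2 classes. The log2 ratio of mean CPM, aged over young, was 0.7502 in blood endothelium and -1.3815 in fibroblasts. Both aged libraries lay above both young ones in the first class and below them in the second, which is the rule that flagged this gene. In fibroblasts 18.6% of all genes tested were lower without overlap in normalised CPM. The share of genes without overlap in blood endothelium was not counted. In the edgeR fit the blood endothelium estimate was 0.71, and 0.14 without aged female, whose sum held 50 cells. The difference between the classes was not tested.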

How the results depend on the processing

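Depth and 2 libraries per age limit these results. The labels carry no replicate numbers; labelled sex, with 1 library of each at every age, was tried as a covariate. In fibroblasts, the number of members called in aged against young was 1 with DESeq2 (Bgn) and 3 without the filter on low counts (Lum, Bgn, Fmod), and in middle-aged against young 1 with each (Bgn), against 0 in the edgeR fit; over all genes DESeq2 called 0.512% and 0.596%, and the fit without the filter 1.61% and 2.29%. In the other fits named below, the share of all genes called was 0.00574% to 1.75% without the filter, 0.0% to 1.08% with DESeq2, 0.0% to 7.77% with sex as a covariate and the middle-aged pair exchanged, 0.0% to 6.93% without the top 5% of cells and 0.0% to 2.68% with sums thinned. Without the filter the calls were 1 (aged against young, Lum), 2 (middle-aged against young) and 1 (aged against middle-aged) in blood endothelium; 2 and 1 in lymphatic endothelium for middle-aged against young and aged against middle-aged; 3, 3, 2 and 1 for aged against young in Pi16 Dpp4 Smpd3, Dmkn Krtdap, Ccl2 Ptx3 and Col15a1 Agt fibroblasts, 1 for middle-aged against young in Pi16 Dpp4 Smpd3, and 1 each for aged against middle-aged in Dmkn Krtdap and Ccl2 Ptx3; and 1 in the aged against young interaction. DESeq2 called 0 and 1 members in smooth muscle (aged and middle-aged against young, where Lum had no adjusted p in the second) and 1 in Ccl2 Ptx3. With sex as a covariate and the middle-aged pair exchanged, calls were 2 in aged against young smooth muscle, 1 in aged against middle-aged lymphatic endothelium, 2 (aged against young) and 1 (middle-aged against young) in Pi16 Dpp4 Smpd3, 1 in Dmkn Krtdap and 1 in the interaction. Without the top 5% of cells by UMIs, and with sums thinned, smooth muscle gave 0 and 1 calls and lymphatic endothelium 0 in middle-aged against young; the first also gave 1 (Prelp) in aged lymphatic endothelium. Leaving out each library also moved the number of members called in smooth muscle, in blood and lymphatic endothelium and in the interaction. Those counts are not given, since each such fit leaves 1 library in an age group. Over the fits that leave out a library, the log2 estimate of aged against young ran from -0.33 to 0.031 for Dcn (highest without aged female, -0.13 with all libraries), from -0.98 to 0.66 for Prelp in fibroblasts (highest without young male, -0.37 with all), and from -0.036 to 0.35 for Bgn in Fgf10 Scg3 (lowest without aged male, 0.17 with all), so their signs turned. Bgn in Cilp Hmcn2 fibroblasts was 351 CPM, against 833, with the SLRP genes kept in clustering, where clusters of 592 and 1901 cells took that name. The other 157 levels moved by less than 1 SD. Among single genes and counts, 804 values kept their direction and side of the threshold, 20 passed it, 10 lost it, 3 turned their sign and 51 counts of calls moved. The cause of these moves was not tested. Smooth muscle and lymphatic endothelium could not be fitted with the stricter cell filter or without aged male, nor Cilp Hmcn2 with sex as a covariate or without any of its 4 libraries.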

Other observations

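In fibroblasts, the 11 other SLRP and SLRP-like genes had lower means than each member except Fmod. Some other classes differed. In lymphatic endothelium, Ecm2 stood above Lum, Ogn, Aspn and Fmod and below Dcn, Bgn and Prelp. In basal epithelium, Chadl stood above Fmod, Ogn, Lum and Aspn and below Dcn, Bgn and Prelp. Ecm2, the neighbour of Aspn, averaged 81.0 ± 23.3 CPM in fibroblasts (SD, n = 6), 98.2 ± 63.8 CPM in lymphatic endothelium (SD, n = 5), 91.9 ± 20.9 CPM in smooth muscle (SD, n = 5) and 54.7 ± 8.60 CPM in blood endothelium (SD, n = 6). Podn (podocan) averaged 236 ± 123 CPM in Col15a1 Agt (SD, n = 6) and 221 ± 138 CPM in Cilp Hmcn2 fibroblasts (SD, n = 4), the 2 subtypes with the highest Bgn means, and 22.5 ± 18.4 CPM in Dmkn Krtdap fibroblasts (SD, n = 6). Omd (osteomodulin), between Aspn and Ogn, averaged 34.4 ± 7.97 CPM in fibroblasts (SD, n = 6). Chadl averaged 59.2 ± 13.7 CPM in basal epithelium (SD, n = 3), and Podnl1 26.2 ± 18.8 CPM in NK and innate lymphoid cells (SD, n = 6). These levels are a description with no test.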
